A study of Mus musculus with 6 samples.

Results

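The genes that carry glucose into heart muscle and break it down to pyruvate, lactate and carbon dioxide were compared between the ventricles of 3 miR-499 transgenic (TG) mice and 3 wild-type (WT) littermates. The 39 genes were listed by name, from the glucose transporters through glycolysis, lactate dehydrogenase and the pyruvate dehydrogenase complex to the citric acid cycle, with malic enzyme and pyruvate carboxylase beside it. Each gene was read by its brightest probe set that the platform annotation pairs with exactly 1 gene, which gave 38 of the 39 among 19938 genes. Gpi1, glucose-6-phosphate isomerase, had no such probe set in the annotation used here.

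All mice were at postnatal day 17. The TG mice were from line #17, made in FVB/NCrl embryos, in which the Myh6 promoter drives miR-499 in cardiomyocytes. The WT littermates lack the transgene, and no drug or operation is named for any of these mice. All TG mice were from that single line, and the whole ventricle holds every cell type of the tissue, so that fewer cells of a type and less RNA per cell cannot be told apart. RNA from each mouse was hybridised to 1 Affymetrix Mouse Gene 1.0 ST array, and values are on the log2 scale, as normalized by the authors with RMA.

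Glycolysis splits glucose in the cytosol into pyruvate, which lactate dehydrogenase turns into lactate and pyruvate dehydrogenase passes into the mitochondrial citric acid cycle as acetyl-CoA. Most steps are served by several isoforms, whose balance differs between tissues and between the fetal and the adult heart. Around birth and in the weeks after it the mouse heart moves from glucose and lactate to fatty acids as its main fuel.

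The transgene was seen on the arrays. Mir499 read 5.48, 5.34 and 5.67 in the WT mice and 9.31, 9.33 and 8.87 in the TG mice. The groups were far apart, by a log2 fold change of 3.67 (SE 0.150, n = 3 and 3; adjusted p = 0.00772 by limma, with the Benjamini-Hochberg correction across the whole array). The mature 5′ product, which the transgene was built to raise, is given below from RefSeq (GRCm38.p6, chr2:155622893-155622913, plus strand), with bases 2 to 8, the seed that pairs with targets, in capitals.
mmu-miR-499-5p: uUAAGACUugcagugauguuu

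Markers of other cell types were read beside these genes. The summed linear level overlapped between the groups for ventricular muscle, fibroblast, endothelial, red cell, fat and nerve markers, but single markers did not all overlap. The red cell sum used 2 of 7 listed markers, without a haemoglobin gene, the nerve sum 4 of 6 and the fat sum 5 of 6. Over all genes the groups did not overlap for 25.8%, the share to set beside the marker counts that follow. Of 8 ventricular markers, 4 were higher in every TG mouse and 2 lower, and none had an unadjusted p under 0.05 by limma. The summed linear level of 6 genes listed as atrial markers was 4374 to 5198 in WT and 3760 to 3885 in TG. Of the 6, 4 were lower without overlap (Myl4, Myl7, Nppa and Sln), while Nr2f2 and Myl1 overlapped. Nppa, with a WT mean of 11.27, was the brightest of the 6 and weighs most in the sum, which does not measure atrial tissue. The sum of 6 smooth muscle and pericyte markers was 12210 to 13020 in WT and 11520 to 11870 in TG, with 3 lower and 1 higher. The sum of 8 skeletal muscle markers was also lower in TG (871.3 to 916.9 against 794.4 to 838.9). The sum of 6 leukocyte markers was higher (2103 to 2210 against 2282 to 2342), but the markers went both ways, since Lyz2 was at 0.27 and Cd3e at -0.27 on the log2 scale. Their part in the results that follow was not tested.

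The genes of glucose breakdown differed little between the groups. None of the 38 passed the call used for this array, a limma log odds (B) above 0, which 0.341% of all genes passed, and none had an adjusted p under 0.05, which 0.01% of all genes had. At an unadjusted p under 0.05, limma gave 6 of the 38 (15.8%), near the 15.4% of all genes that reached it. Of these 5 were higher in TG (Hk1, Pgam2, Pdk2, Idh2 and Me1), where 6.65% of all genes were, and 1 was lower (Slc2a1), where 8.76% were. The groups did not overlap for 15 of the 38 (39.5%), against 25.8% of all genes, with 10 higher in TG, where 12.2% of all genes were, and 5 lower, where 13.6% were. These counts were made on the scaling as deposited and hold gaps of any size, such as Mdh1 at 13.56 in WT 3 and 13.562 in TG 3. The share among genes of like brightness was not taken.

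The log2 fold changes ran from -0.21 for Slc2a1 to 0.27 for Me1, and 29 of the 38 (76.3%) lay within 0.1 of 0, against 57.8% of all genes. The median size of the change, without its sign, was 0.042 over the 38 genes and 0.083 over all genes. The standard errors were 0.045 to 0.090. For 37 of the 38 the whole 95% confidence interval lay within 1.3-fold in either direction, and the exception was Me1. The genes were among the brighter ones of the array, since 33 of the 38 had a mean over 10, which 8.27% of all genes had.

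The median log2 fold change was 0.022 over the 38 genes, against -0.018 over all genes and 0.059 over all genes with a mean over 10. Its sign depended on the scaling, since it was 0.073 when each array was centred on its median and -0.037 after a second quantile normalization. In all 22 means were higher in TG and 16 lower. The centring adds the same 0.051 to every log2 fold change and so made 33 higher and 5 lower, while the second quantile normalization, whose shift was not the same for every gene, made 12 higher and 26 lower. No direction is therefore given for the list as a whole. By step, and on the scaling as deposited, the median log2 fold change was -0.15 for uptake, 0.042 for upper and 0.022 for lower glycolysis, 0.012 for lactate dehydrogenase, 0.0085 for pyruvate dehydrogenase, 0.030 for the citric acid cycle and 0.070 for malic enzyme with pyruvate carboxylase. The median deviation of the 38 genes from their mean over the 6 mice was between -0.0087 and 0.0092 in every mouse.

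**Figure D1:**
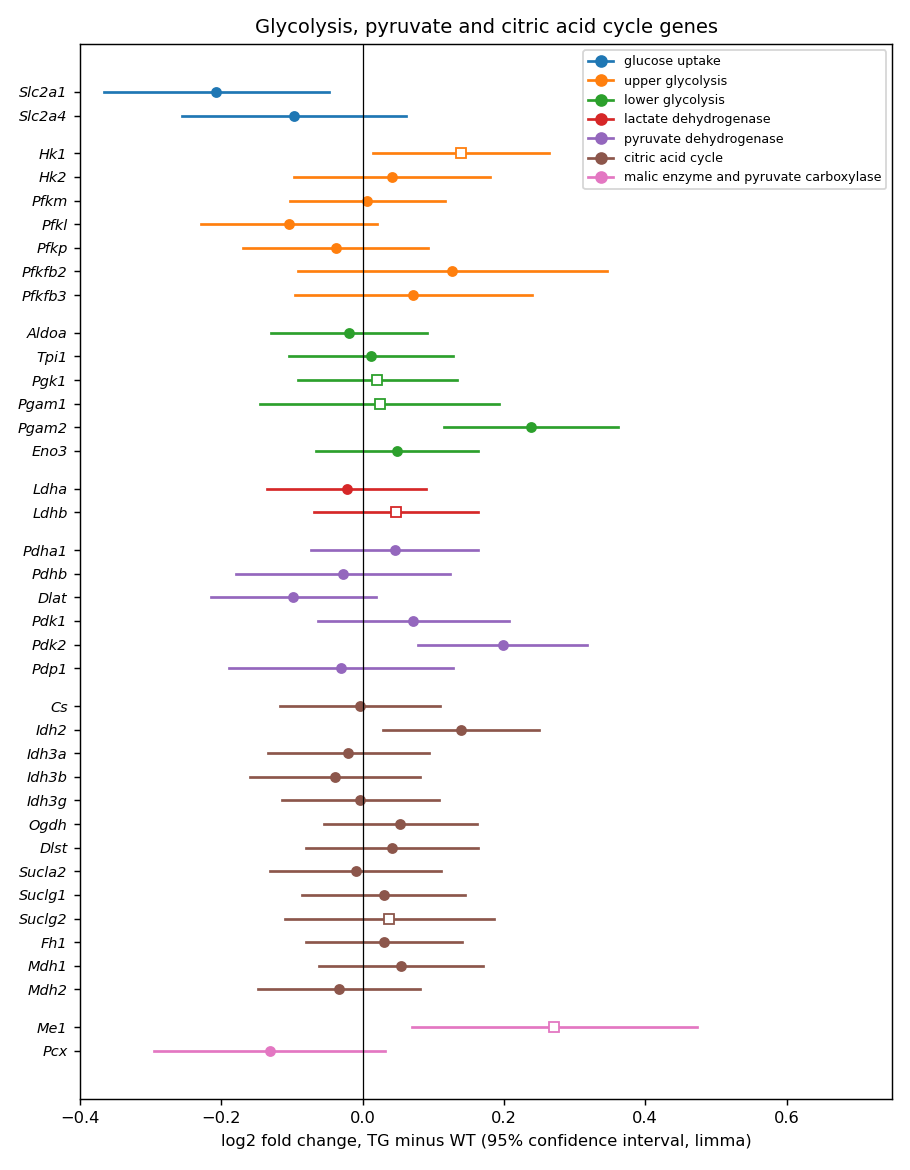
Log2 fold change of each gene, TG minus WT, with its 95% confidence interval from limma, coloured by step (38 genes, 3 mice per group). Open squares mark the 6 genes read by a probe set that is numbered among genes of another chromosome. Intervals run across 0 except for Slc2a1, Hk1, Pgam2, Pdk2, Idh2 and Me1.

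**Figure D2:**
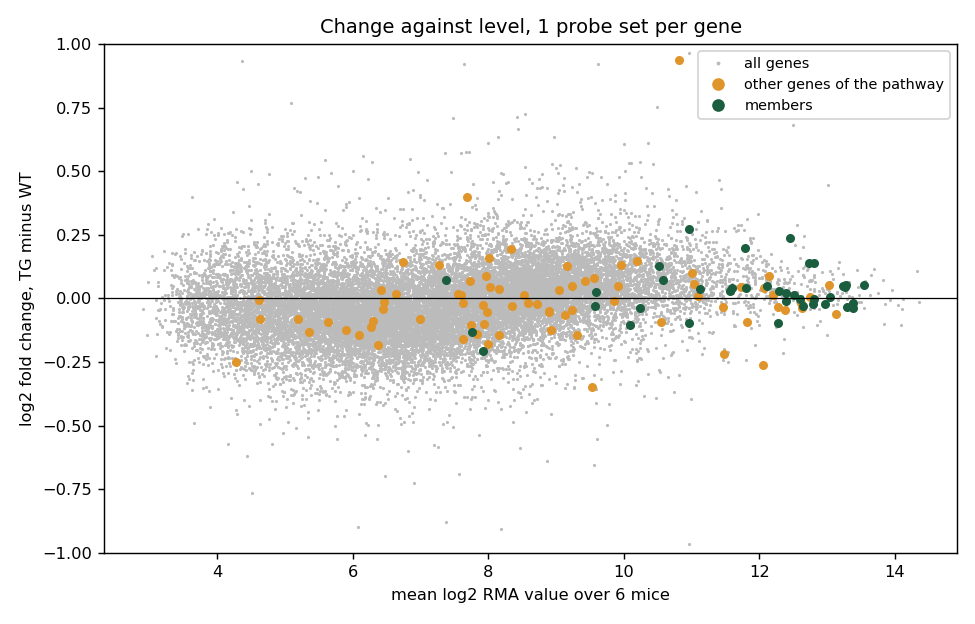
Log2 fold change, TG minus WT, against the mean log2 value over 6 mice, with 1 point per gene (19936 genes drawn in grey, 2 beyond the axis at 1). The glucose genes (green) sit at the bright end and close to 0, and the other genes of the pathway (orange) spread more widely.

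The 6 genes read by an off-locus probe set need care. Hk1, Pgk1, Pgam1, Ldhb, Suclg2 and Me1 have several probe sets, and in all 6 genes the brightest one carries a number that lies among probe sets of genes on another chromosome than the gene's own in RefSeq, for 17 to 20 of its 20 nearest placed neighbours. Each of these genes also has a probe set numbered at its own chromosome, and its value is given with the gene below. Which transcripts the off-locus probe sets read was not tested. The use of the own-locus probe sets was chosen after seeing the data, and it made the median 0.016.

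Glucose uptake was the step with the lowest median log2 fold change, and both of its transporters had lower means in TG. Slc2a1, the GLUT1 transporter that works without insulin and prevails in the fetal heart, read 8.07, 7.95 and 8.06 in WT and 7.90, 7.74 and 7.81 in TG. Every TG mouse was below every WT mouse, by a log2 fold change of -0.21 (SE 0.066, 1.15-fold lower; adjusted p = 0.266 by limma). Leaving out WT 1, WT 3 or TG 2 took its unadjusted p to 0.0611, 0.0569 or 0.0631. Slc2a4, the insulin-responsive GLUT4 of adult muscle, read 11.01, 11.03 and 10.97 in WT and 11.01, 10.88 and 10.82 in TG, with overlap (-0.10, SE 0.065, adjusted p = 0.506 by limma). The Slc2a4 value was -0.15 without TG 1, the mouse that overlapped WT, and -0.054 without TG 3.

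In upper glycolysis, the phosphorylation of glucose and of fructose 6-phosphate, Hk1 and Hk2 encode the hexokinases. The brightest Hk1 probe set read 12.70, 12.71 and 12.77 in WT and 12.87, 12.90 and 12.83 in TG, a log2 fold change of 0.14 (SE 0.051; adjusted p = 0.294 by limma). The probe set at the Hk1 locus read 10.06, 10.05 and 10.01 in WT and 9.96, 10.05 and 9.96 in TG, which overlap, and its change was -0.052 (SE 0.051, adjusted p = 0.650 by limma). Leaving out WT 1, WT 2, TG 1 or TG 2 took the unadjusted p of the brightest one to 0.0742 or more. The direction for Hk1 turned with the probe set, and 16 further probe sets share Hk1 with other genes in the annotation. Hk2, the insulin-responsive muscle hexokinase, had a change of 0.042 (SE 0.057).

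Phosphofructokinase sets the pace of glycolysis. The muscle subunit Pfkm read 13.02 to 13.04 in WT and 13.03 to 13.05 in TG (change 0.0067, SE 0.045). The liver subunit Pfkl read 10.15, 10.14 and 10.15 in WT and 10.09, 10.06 and 9.98 in TG, so that the TG mice lay below the WT mice, with a change of -0.10 (SE 0.051, adjusted p = 0.386 by limma). The platelet subunit Pfkp overlapped (-0.038, SE 0.054). Pfkfb2 and Pfkfb3, whose bifunctional enzymes make the activator fructose 2,6-bisphosphate, had log2 fold changes of 0.13 (SE 0.090) and 0.072 (SE 0.069), both with overlap. These values moved with single mice, from 0.071 (without TG 1) to 0.21 (without TG 3) for Pfkfb2 and from 0.034 (without WT 3) to 0.13 (without WT 2) for Pfkfb3. The Pfkfb2 interval, from -0.091 to 0.35, was the widest of the 38.

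In lower glycolysis the largest value belonged to Pgam2, the muscle phosphoglycerate mutase, which moves the phosphate of 3-phosphoglycerate. Pgam2 read 12.35, 12.29 and 12.36 in WT and 12.62, 12.55 and 12.56 in TG. The groups were apart by a log2 fold change of 0.24 (SE 0.051, 1.18-fold; adjusted p = 0.224, B -1.21 by limma), and its p was the lowest of the 38. Leaving out any 1 mouse kept the unadjusted p between 0.00765 and 0.0121. When the spread was modelled with its trend over intensity, which lets the expected spread of a probe set depend on its level, B was 1.44, and when the share assumed to be changed was set to 0.05 it was 0.33, so the call of Pgam2 depends on these settings.

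Pgam1, the form found in most tissues, read 9.49 to 9.68 in WT and 9.55 to 9.68 in TG (change 0.024, SE 0.070). Its own-locus probe set read 9.44, 9.47 and 9.56 in WT and 9.63, 9.58 and 9.67 in TG, without overlap. The change was 0.13 (SE 0.056, adjusted p = 0.327 by limma). A further Pgam1 probe set, numbered off-locus, had these same values in every mouse. It is not a separate reading, and these values are not particular to the own locus. Eno3, the muscle enolase, read 13.19 to 13.22 in WT and 13.23 to 13.29 in TG, also without overlap, but by only 0.049 (SE 0.047). Aldoa (aldolase), Tpi1 (triose-phosphate isomerase) and Pgk1 (phosphoglycerate kinase) had changes between -0.020 and 0.020 with overlap. The 3 Pgk1 probe sets gave changes of 0.020 each. The off-locus ones had the same values in every mouse and are not separate readings.

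Lactate dehydrogenase interconverts pyruvate and lactate, with Ldha encoding the muscle and Ldhb the heart subunit. Ldha read 12.79, 12.83 and 12.80 in WT and 12.80, 12.77 and 12.78 in TG (change -0.023, SE 0.046). Ldhb read 12.08, 12.06 and 12.12 in WT and 12.12, 12.16 and 12.13 in TG (0.047, SE 0.048), and 0.026 (SE 0.065) at its own locus. Both overlapped, and each 95% interval stayed within 1.3-fold.

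The pyruvate dehydrogenase complex is switched off by kinases (Pdk) and on by phosphatases (Pdp), and Pdk2 is one of the kinases of adult heart. Pdk2 read 11.67, 11.74 and 11.67 in WT and 11.86, 11.91 and 11.90 in TG. Every TG mouse was above every WT mouse, by a log2 fold change of 0.20 (SE 0.049, 1.15-fold; adjusted p = 0.232, B -1.92 by limma). Its unadjusted p was 0.0101 to 0.0252 without any 1 mouse, and with the intensity trend its B was 0.57, past the call. Pdk1 read 10.57, 10.58 and 10.48 in WT and 10.59, 10.66 and 10.60 in TG, just without overlap (0.072, SE 0.055, adjusted p = 0.563 by limma).

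Of the complex itself, Pdha1 and Pdhb encode the E1 subunits and Dlat the acetyltransferase E2. Dlat read 12.30, 12.34 and 12.31 in WT and 12.25, 12.22 and 12.18 in TG, with the TG mice below (-0.098, SE 0.048, adjusted p = 0.388 by limma). Pdha1 (0.045, SE 0.049) and Pdhb (-0.028, SE 0.062) overlapped. The pyruvate dehydrogenase genes Pdhx and Dld were on the list of other genes of the pathway. Pdhx was higher in every TG mouse (0.15, SE 0.061, adjusted p = 0.330 by limma), and Dld overlapped (0.040, SE 0.050). The phosphatase Pdp1 overlapped too (-0.031, SE 0.065), and its WT mice ranged from 9.47 to 9.65.

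The 13 genes of the citric acid cycle had changes from -0.040 (Idh3b) to 0.14 (Idh2), with 12 of them within 0.1 of 0. Idh2, the mitochondrial NADP-dependent isocitrate dehydrogenase, read 12.67, 12.66 and 12.65 in WT and 12.80, 12.81 and 12.78 in TG. The SD within a group was 0.010 in WT and 0.016 in TG, and the change was 0.14 (SE 0.046; adjusted p = 0.269 by limma). Leaving out WT 2, WT 3, TG 1 or TG 2 took its unadjusted p to between 0.0516 and 0.0639.

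The NAD-dependent isocitrate dehydrogenase is encoded by Idh3a, Idh3b and Idh3g, whose means were lower in TG. Idh3b read 13.38, 13.46 and 13.38 in WT and 13.36, 13.38 and 13.36 in TG, lower by 0.0395 at the means. The TG mice lay only just below the WT mice, with 13.376 in TG 2 against 13.378 in WT 3. Idh3a and Idh3g overlapped, at -0.021 and -0.0033. All 3 values are smaller than the 0.051 that centring the arrays adds to every gene, so their sign is relative to the scaling. Whether Idh2 differs in its change from the Idh3 genes was not tested.

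Ogdh, the E1 subunit of 2-oxoglutarate dehydrogenase, read 13.24, 13.24 and 13.25 in WT and 13.30, 13.30 and 13.29 in TG. The groups did not overlap, with an SD of 0.0046 and 0.0054, and the change was 0.053. Its limma SE was 0.045, about the size of the change (adjusted p = 0.596), because limma draws the spread of each probe set towards that of all others. Mdh1, the cytosolic malate dehydrogenase (0.054, SE 0.048), and Fh1, fumarase (0.030, SE 0.045), were likewise without overlap, and Fh1 turned to -0.019 after the second quantile normalization. Cs (citrate synthase), Dlst, Sucla2, Suclg1, Suclg2 and Mdh2 overlapped, with changes from -0.034 for Mdh2 to 0.042 for Dlst, and 0.052 for Suclg2 at its own locus.

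Me1 and Pcx stand beside the cycle. Me1, the cytosolic malic enzyme that makes NADPH while turning malate into pyruvate, read 10.77, 10.78 and 10.94 in WT and 10.97, 11.17 and 11.17 in TG. The groups did not overlap, although WT 3 lay just below TG 1, and the change of 0.27 (SE 0.083, 1.21-fold; adjusted p = 0.260 by limma) was the largest of the 38. The own-locus probe set of Me1 read 10.75, 10.75 and 10.89 in WT and 10.93, 11.05 and 11.07 in TG, a change of 0.22 (SE 0.068, adjusted p = 0.261 by limma). Leaving out WT 1, WT 2, TG 2 or TG 3 took the unadjusted p of the brightest probe set to between 0.0519 and 0.0552. Pcx, pyruvate carboxylase, which refills the cycle with oxaloacetate, read 7.80, 7.92 and 7.73 in WT and 7.72, 7.71 and 7.63 in TG, with the TG mice below (-0.13, SE 0.067, adjusted p = 0.402 by limma). The Pcx value was -0.080 without WT 2 and -0.17 without WT 3.

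**Figure D3:**
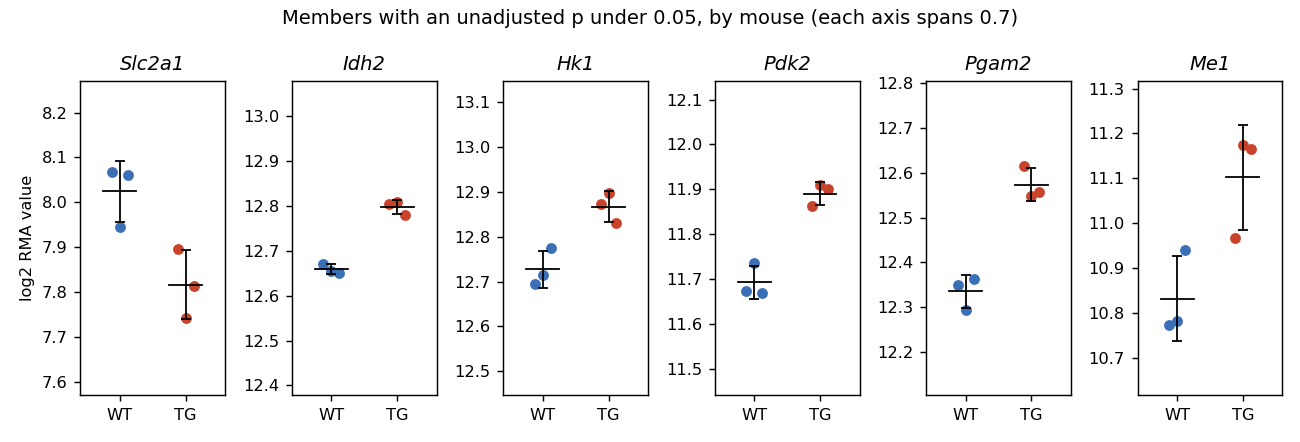
Log2 RMA value of each mouse for the 6 genes with an unadjusted p under 0.05, with the group mean and SD (n = 3 and 3, each axis spanning 0.7). In each panel the TG mice are all on one side of the WT mice. Panels differ in level and their levels cannot be compared between genes.

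The balance between 2 isoforms was taken as the difference of their log2 values within each mouse, for 9 pairs. The groups did not overlap for 3 of the 9 pairs, beside 25.8% of all single genes, and no such share was taken for other pairs of genes. In each of the 3 the form named for muscle, or the kinase Pdk2, was shifted upwards relative to its partner in TG. Pgam2 and Pdk2 were already among the genes at an unadjusted p under 0.05 by limma, so their pairs are not independent of that result. Pgam2 minus Pgam1 shifted by 0.21, Pdk2 minus Pdk1 by 0.13 and Pfkm minus Pfkl by 0.11. For each of these 3 pairs the exact two-sided permutation p was 0.1, the smallest that 3 against 3 mice allow, and 0.3 after Benjamini-Hochberg adjustment over the 9 pairs. The values of the differences for Pgam2 and Pgam1 were 2.86, 2.71 and 2.68 in WT and 3.02, 3.0 and 2.88 in TG. With the own-locus Pgam1 probe set the shift was 0.10 and the groups overlapped.

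The other 6 pairs overlapped. Slc2a4 minus Slc2a1 shifted by 0.11 and Ldhb minus Ldha by 0.070 (exact permutation p = 0.2 each). Hk2 minus Hk1 shifted by -0.098 with the brightest Hk1 probe set but by 0.094 with the own-locus one, so no direction is given for it. Suclg2 minus Sucla2, Pfkm minus Pfkp and Pfkfb2 minus Pfkfb3 shifted by 0.048, 0.045 and 0.055.

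**Figure D4:**
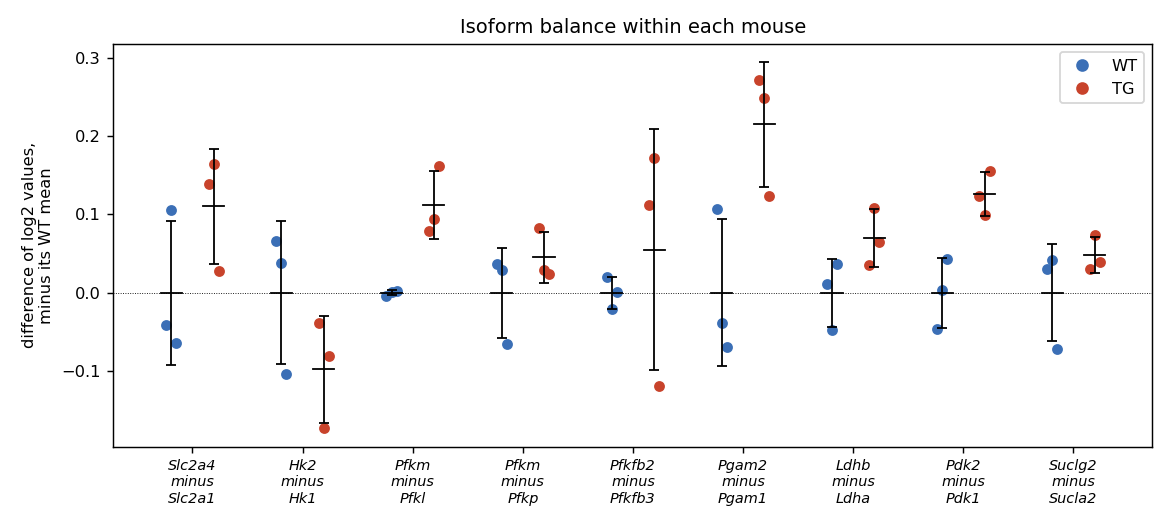
Difference of the log2 values of 2 isoforms within each mouse, minus its WT mean, with the group mean and SD (n = 3 WT and 3 TG). Points of TG lie wholly above those of WT for Pfkm minus Pfkl, Pgam2 minus Pgam1 and Pdk2 minus Pdk1.

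Of the other genes of the pathway, 76 of 85 listed had a single-gene probe set, and Gapdh, with 25 shared probe sets, was among the 9 that did not. At B above 0 there was 1 of the 76, Pdpr, which was lower in TG, where 0.211% of all genes passed, and at an unadjusted p under 0.05 there were 10 (13.2%, against 15.4% of all genes), 4 higher and 6 lower in TG. The groups did not overlap for 23 of the 76 (30.3%), against 25.8% of all genes. The median log2 fold change was -0.020.

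Pdpr encodes the regulatory subunit of pyruvate dehydrogenase phosphatase and read 9.68, 9.72 and 9.69 in WT and 9.43, 9.31 and 9.31 in TG. Pdpr fell by 0.35 on the log2 scale (SE 0.055, 1.27-fold lower; B 0.15, adjusted p = 0.205 by limma). Its B was between -1.41 and -0.45 when the arrays were centred on their median, with the replicate number as a block, and without WT 1, WT 2, WT 3, TG 2 or TG 3, and above 0 in the other 9 of 16 alternatives. The log2 fold change stayed between -0.40 and -0.30 in all 16. The phosphatase genes Pdp1 (above) and Pdp2 (-0.18, SE 0.11) overlapped, and so did the kinase gene Pdk4 (-0.038, SE 0.14), whose WT mice ranged from 12.34 to 12.81.

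Among the carriers, Slc25a11, the oxoglutarate carrier of the malate-aspartate shuttle, read 12.17, 12.22 and 12.14 in WT and 11.96, 11.93 and 11.86 in TG (-0.26, SE 0.054; adjusted p = 0.224 by limma). Slc16a1, the MCT1 transporter of lactate and pyruvate, read 11.57, 11.65 and 11.55 in WT and 11.36, 11.38 and 11.38 in TG (-0.22, SE 0.051; adjusted p = 0.228 by limma). All TG mice were below all WT mice for both. Slc16a7 (MCT2) was higher by 0.13 and Slc2a8 (GLUT8) lower by 0.16, and G6pc3 (-0.14) and Hk3 (-0.18), at p near 0.05, completed the downward side, while Mlxip, a glucose-sensing transcription factor, was at 0.19 and Myc at 0.40.

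Ppargc1a, the coactivator PGC-1α of mitochondrial genes, read 10.23, 10.29 and 10.51 in WT and 10.91, 11.36 and 11.58 in TG. The change was 0.94 (SE 0.18, adjusted p = 0.224, B -0.69 by limma), the largest of the pathway in size. Its B was above 0 in 5 of 16 alternatives, so the call of Ppargc1a depends on the settings. A dimmer Ppargc1a probe set gave 0.87 (SE 0.25, adjusted p = 0.252 by limma), also without overlap. Ppargc1a is on the study's list of genes altered in these mice, so that its value is not independent of that choice. Hif1a, the oxygen-sensing activator of glycolytic genes, was higher in each TG mouse but at adjusted p = 0.407 by limma (0.13, SE 0.068), and Esrra, a partner of PGC-1α, overlapped (-0.049, SE 0.075).

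**Figure D5:**
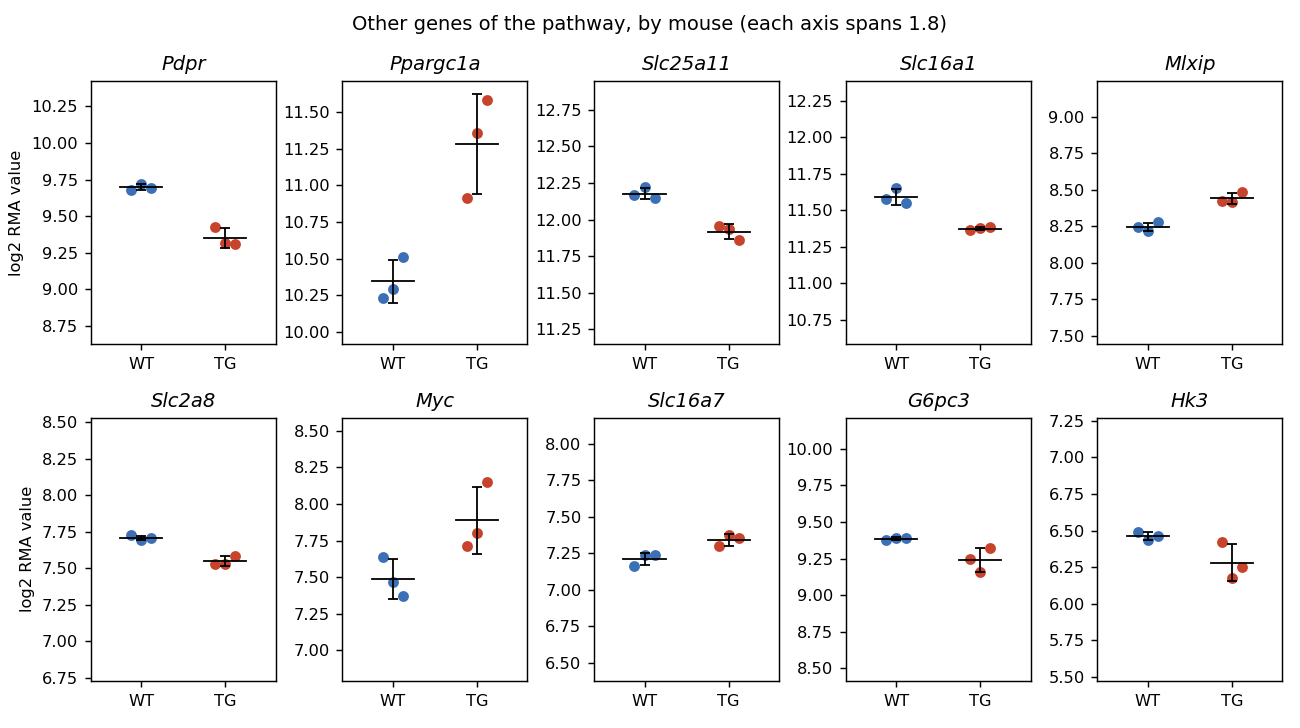
Log2 RMA value of each mouse for the 10 other genes of the pathway with an unadjusted p under 0.05, with the group mean and SD (n = 3 WT and 3 TG, each axis spanning 1.8). The 2 groups are apart in every panel, most widely for Ppargc1a.

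What the 39 genes share in sequence was read from promoters, the 250 bases before and 50 after each transcription start in the RefSeq table of GRCm38.p6. The table held 36 of the 39 genes with 55 promoters. The core of the hypoxia response element, ACGTG, was looked for on both strands, where the other strand reads CACGT, and the 2 overlap in the E-box CACGTG. It was present in 26 of the 55 promoters (47.3%), against 19.6% of 32851 promoters of all genes. By gene, counting a match in any of its promoters, it was in 17 of 36 (47.2%), against 21.8% of 27025. The share by gene was 10 of 17 (58.8%) for uptake, glycolysis and lactate dehydrogenase and 7 of 19 (36.8%) for the later steps. These genes had more promoters per gene than all genes, which gives more chances of a match, and the part of this was not tested. Promoters of a gene can overlap, so that the same site was counted more than once for Ogdh and Aldoa.

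The promoters of these genes were also richer in G and C, with a median of 61.1% against 52.8%, and in CpG, with a median of 19.2 against 7, and the part of base composition in the share was not tested. Windows around the match are shown for genes described above, in capitals the match, to show what was counted.
Slc2a1, chr4:119108699-119108723, plus strand: cccgccccggACGTGctccccaggc
Pfkfb3, chr2:11553975-11553999, minus strand: ccgcgccgtgACGTGccaagctgtg
Pgk1, chrX:106186940-106186964, plus strand: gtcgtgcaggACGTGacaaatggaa
Ldha, chr7:46845746-46845770, plus strand: gcccagcctaCACGTgggttcccgc
Pdk2, chr11:95041483-95041507, minus strand: cgaggagagcCACGTgtcgaagcgc
Me1, chr9:86687361-86687385, minus strand: caggctagggCACGTctgtggggta
The fold changes of genes with and without the motif overlapped. The median log2 fold change was 0.024 for 17 measured genes with it, from -0.21 (Slc2a1) to 0.27 (Me1), and 0.030 for 18 without it, from -0.10 to 0.24. The half-site of the estrogen-related receptors, AAGGTCA, searched on both strands, was in 2 of the 55 promoters (3.64%), those of Ogdh and Tpi1, against 4.72% of all promoters. A match describes the letters of the window and no binding.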

How the data were processed

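Ventricular RNA of 3 WT and 3 TG mice at postnatal day 17 was measured with 1 array for each mouse. Values deposited by the authors are log2 intensities of probe sets from RMA (background correction, quantile normalization and probe summary), per the labels. Neither the RMA version nor any filter was given in the sources used here. The sample labels gave the groups, and the paper's methods gave the line and the age. The mice are separate animals.

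The 35556 probe sets were fitted with limma 3.58.1 under R 4.3.3, by lmFit and eBayes with no trend and an assumed changed share of 0.01. A gene was called at B above 0, the study's less stringent cut-off, and adjusted p is by Benjamini and Hochberg across the array. In the platform annotation 21789 probe sets had 1 symbol, 1621 several and 12146 none, and no symbol needed an update through RefSeq. Where a gene had several single-symbol probe sets, that with the highest mean was used. All listed genes were named, and other genes of the pathway at B above 0 or an unadjusted p under 0.05 (at most 12), with Hif1a, Esrra, Pdp2 and Pdk4 added after their values were seen. Isoform differences were tested with an exact two-sided permutation test (scipy 1.17.1). The members and lists were chosen with earlier results of these data known. The B call was also tested on simulated data with as many probe sets (35556) and arrays (6) as this comparison. The spreads were shuffled among the probe sets, so that a spread did not follow the level of its probe set. The rates are thus not those of bright genes in particular. The B call recovered 66% of 100 changes of 1.5-fold and 87% of 100 changes of 2-fold, beside 33 false calls. Changes under 1.5-fold were not simulated. The largest change among the listed genes of glucose breakdown was 1.21-fold (Me1). These rates therefore do not show how often a change of that size would be called.

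Settings tried beside these were leaving out dim probe sets or each mouse in turn, fitting listed probe sets only, centring arrays on their median, repeating the quantile normalization, an intensity trend, robust moderation, weights for arrays, a replicate block, a share of 0.05 and averaging a gene's probe sets. Own-locus probe sets were tried once the data had been seen. The values carry no counts, so that precision rests on how many arrays there are.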

Additional observations from a re-analysis of the deposited data

How the results depend on the processing

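Precision was limited by 3 mice per group. The count over the array at B above 0 (55 probe sets higher and 75 lower in TG) was 287 with the intensity trend, 714 with an assumed share of 0.05, 69 with the replicate block and 29 (without TG 2) to 112 (without WT 3) when 1 mouse was left out. Of the 38 genes, 2 passed B above 0 with the trend (Pgam2 and Pdk2), 1 with the share of 0.05 (Pgam2) and 0 in each fit without 1 mouse. At an unadjusted p under 0.05, with 5 genes higher and 1 lower by limma as reported, the higher ones were 3 after the second quantile normalization, 3 with the block and 2 (without WT 2 or TG 2) to 5 without 1 mouse. The lower ones were 0 with centred arrays, 3 after the quantile normalization, 3 with the trend and 0 (without WT 1, WT 3 or TG 2) to 2 (without TG 1) without 1 mouse. Of the other pathway genes, B was above 0 for 2 among listed probe sets only, 0 with centred arrays, 4 with the trend, 3 with the share of 0.05 and 0 to 2 without 1 mouse. The median log2 fold change was 0.073 with centred arrays, -0.037 after the quantile normalization, 0.016 with own-locus probe sets and 0.011 to 0.024 without 1 mouse.

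Directions turned as follows. Centring adds the same 0.051 to every log2 fold change, so values just below 0 turned by its construction, and Pfkp was at 0.013, Aldoa at 0.031, Ldha at 0.028, Pdhb at 0.023, Pdp1 at 0.020, Cs at 0.047, Idh3a at 0.031, Idh3b at 0.012, Idh3g at 0.048, Sucla2 at 0.041 and Mdh2 at 0.017. The cause of the other turns was not tested. After the quantile normalization Hk2 was at -0.012, Pfkm at -0.038, Tpi1 at -0.052, Pgk1 at -0.035, Pgam1 at -0.029, Ldhb at -0.018, Dlst at -0.032, Suclg1 at -0.037, Suclg2 at -0.048 and Fh1 at -0.019, and Pfkfb2 minus Pfkfb3 at -0.055. With array weights Idh3g was at 4.9e-06, and with own-locus probe sets Hk1 was at -0.052 and Hk2 minus Hk1 at 0.094. Without 1 mouse, Cs ranged from -0.018 to 0.010, Idh3g from -0.0084 to 0.0066, Pdhb from -0.062 to 0.011, Pdp1 from -0.090 to 0.0019, Pfkm from -0.00063 to 0.012, Pgam1 from -0.022 to 0.072, Sucla2 from -0.031 to 0.014, Tpi1 from -0.0071 to 0.025 and Pfkfb2 minus Pfkfb3 from -0.0030 to 0.14.

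The labels do not say whether mice of the same replicate number were paired. Deviations from the group means correlated at 0.024, -0.00044 and 0.057 for mice of the same number. The last, for WT 3 and TG 3, was the highest of all pairs, while WT 2 correlated best with TG 1 (0.034). Values this small, from 3 mice per group, cannot decide whether the mice were paired, so the block is only an alternative. In this balanced design the block leaves every fold change as it is. With it B was -2.21 for Pgam2, and the 1 other pathway gene at B above 0 was Ppargc1a (B 0.059), not Pdpr (B -1.38).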
